A study of Mus musculus with 4 samples.

Results

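The regions described here are the broad accessible regions of regulatory T cell chromatin, taken as all regions 2000 bp or more wide on chromosomes 1 to 19. They numbered 2808, which is 3.41% of the 82264 autosomal regions and part of 84476 regions in all. Width alone chose them, and no measured level was used directly. Width and level do go together over all autosomal regions (Spearman's rho 0.563), so the choice is not free of level. Another 51 regions of that width on chromosome X and 1 on chromosome Y were left out by the rule. The cells came from spleen and lymph nodes of male NOD mice, which are prone to autoimmune diabetes, aged 8 to 10 weeks. All were CD4+ TCRβ+ regulatory T cells sorted as the brightest 50% for CD25, and each library was made from 50000 cells. The 2 groups differed in genotype, Flicr WT and Flicr KO, with 2 libraries each. Flicr is a long noncoding RNA gene beside Foxp3, and the series asks how it modulates Foxp3 and autoimmunity. The labels do not say whether replicates came from separate mice. The spread behind each p-value comes from these libraries and may be technical. In the tests of single regions it is pooled over regions, so it need not be that of the region itself.

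In ATAC-seq, a transposase inserts adapters where DNA is free of nucleosomes, and reads pile up over promoters, enhancers and other open elements. Most such elements are short, about the length of a gap in the nucleosome array. A wide region arises where several open elements lie close enough to be joined into 1 interval, and wide stretches of open chromatin are known from strong promoters and from clusters of enhancers at genes that define a cell type. Width is therefore a property of the region list as well as of the chromatin. The list here was common to all 4 libraries, so a region had the same borders in KO and WT, and only its level could differ. Regions are given by their mm9 position. The files pair them with no genes, and none is assigned here.

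The broad regions were long tracts at the upper end of the accessibility scale. Their median width was 2456 bp (quartiles 2198 and 2980 bp), against 375 bp for the narrower autosomal regions, and the widest spanned 15195 bp. Together they covered 7.73 Mb, or 15.2% of the bases in all regions. Their level in RPKM, read number scaled to region length and library size, was averaged over the 4 libraries and had a median of 6.78 (quartiles 4.12 and 11.2), against 2.15 for the narrower regions. A total of 2183 of them, 77.7%, lay in the top 3 deciles of autosomal mean RPKM, and 154 in the lower 5 deciles. The level did not track width inside the group. Across the 2808 regions, which share libraries and are not independent, Spearman's rho between width and mean RPKM was 0.020, while over all 82264 autosomal regions it was 0.563. The classes of 2000 to under 2500 bp (1476 regions), 2500 to under 3000 bp (645), 3000 to under 4000 bp (474) and 4000 bp or more (213) had median levels of 6.62, 7.08, 6.73 and 6.77 RPKM. The rise with width took place below the 2000 bp limit, from 1.37 RPKM in the narrowest class (26335 regions) to 6.48 RPKM in those of 1500 to under 2000 bp. Regions just inside the limit, 2000 to 2002 bp (10 regions), had a median of 6.96 RPKM and those just outside, from 1997 bp (13 regions), 7.24 RPKM.

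The broad regions, which were both wider and at a higher RPKM, carried far more reads apiece. The median broad region held 422 and 588 reads in Flicr WT replicates 1 and 2 and 838 and 384 reads in Flicr KO replicates 1 and 2. The median narrower region held 20, 30, 40 and 18 reads in the same libraries. The lowest number of reads in any broad region and library was 30, so none of them sat at the floor of the files. Libraries held 19514512 to 41809276 reads, of which 24.2% to 35.1% fell in regions, with the lowest share in Flicr WT replicate 1.

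Replicates differed least in the widest regions. After each library was divided by its median region, the median absolute log2 difference between the KO replicates was 0.506 in the narrowest class, 0.118 at 2000 to under 2500 bp and 0.0825 at 4000 bp or more. Between the WT replicates it was 0.478, 0.142 and 0.110. The narrowing held at equal level. In the top decile of mean RPKM, the KO replicates differed by 0.0879 in broad and 0.148 in narrower regions, and the WT replicates by 0.127 and 0.189. Broad regions hold more reads at the same RPKM, and the part of read number in this difference was not tested. Pearson's correlation of log2(RPKM + 1) across broad regions was 0.985 for the KO pair, 0.970 for the WT pair and 0.973 to 0.983 for pairs of unlike genotype. The median absolute log2 difference over broad regions, after scaling, was 0.139 for the WT pair, and 0.155 and 0.165 between Flicr WT replicate 1 and the KO libraries, so which pair was the least alike depended on the measure.

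**Figure D1:**
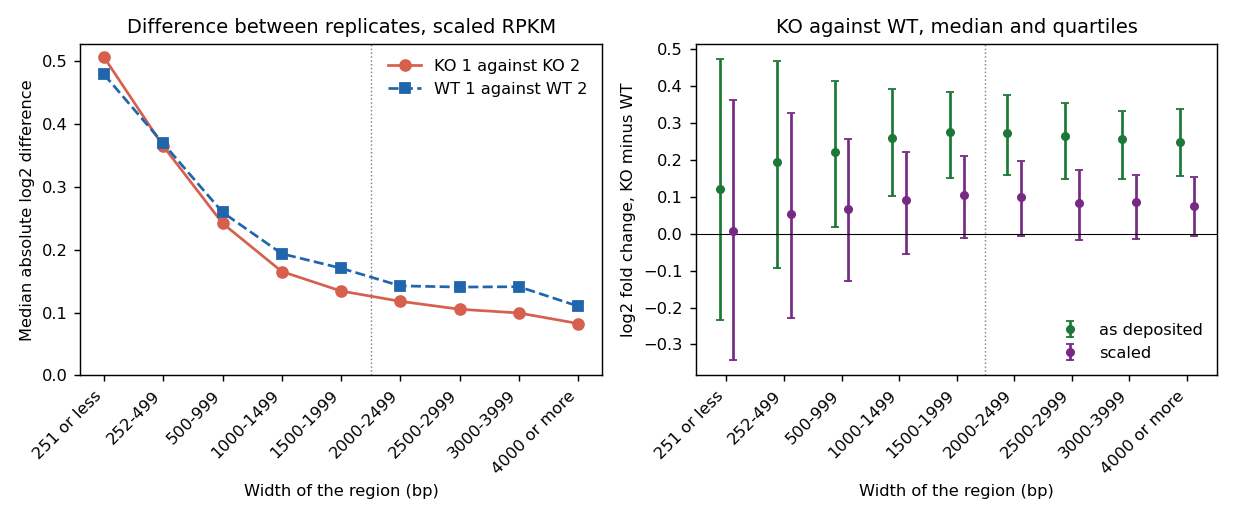
Left, median absolute log2 difference between the 2 replicates of each genotype (scaled RPKM + 1) by width of the region; right, median log2 fold change of KO minus WT with quartiles as bars, as deposited and after division by the library median. The dotted line marks 2000 bp; replicate differences fall from 0.506 to 0.0825 in KO and from 0.478 to 0.110 in WT, while the fold changes of the 4 broad classes stay between 0.247 and 0.272 as deposited and between 0.0759 and 0.0991 after scaling.

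On the values as deposited, broad regions were at a higher level in both KO libraries than in either WT library. The median broad region was at 5.45 and 6.74 RPKM in Flicr WT replicates 1 and 2 and at 7.48 and 7.43 RPKM in Flicr KO replicates 1 and 2. The genotypes did not overlap, but the WT libraries lay further apart than the higher of them lay from KO. KO averaged 7.46 ± 0.0390 RPKM and WT 6.09 ± 0.917 RPKM (SD, n = 2 each), with an exact two-sided permutation p of 0.333, the smallest that 2 libraries against 2 allow. The narrower regions showed the same order, with KO at 2.47 ± 0.0196 RPKM and WT at 2.10 ± 0.382 RPKM (SD, n = 2 each) and the same exact permutation p of 0.333. The broad regions took 5.71%, 7.19%, 8.11% and 7.96% of all library reads in Flicr WT replicates 1 and 2 and Flicr KO replicates 1 and 2.

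Division by each library's median region removed most of that difference. The median broad region then stood at 2.84 and 2.73 times the library median in Flicr WT replicates 1 and 2, and at 2.95 and 3.02 times in Flicr KO replicates 1 and 2. KO was at 2.98 ± 0.0514 and WT at 2.79 ± 0.0783 (SD, n = 2 each), a gap of 0.194 with an exact permutation p of 0.333. Against the narrower regions of the same library, the median broad region was 2.97-fold and 2.84-fold higher in the WT libraries and 3.01-fold and 3.02-fold higher in the KO libraries. The log2 of this ratio was 1.59 ± 0.00391 in KO and 1.54 ± 0.0458 in WT (SD, n = 2 each), a difference of 0.0532 with an exact permutation p of 0.333, which turned to −0.0470 with quantile normalization. It was 0.0208 without Flicr WT replicate 2, 0.0855 without Flicr WT replicate 1 and 0.0952 with a pseudocount of 5.

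The share of region reads that fell in broad regions was nearly the same in all 4 libraries. It was 23.5% and 23.1% in Flicr WT replicates 1 and 2 and 23.1% and 23.4% in Flicr KO replicates 1 and 2. The WT libraries lay on both sides of the KO libraries. The means were 23.3% ± 0.182 in KO and 23.3% ± 0.308 in WT (SD, n = 2 each), a difference of −0.0547 percentage points with an exact permutation p of 1. A p at that size does not show that the shares were equal, and the difference ran from −0.272 to 0.163 percentage points when 1 library was left out.

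**Figure D2:**
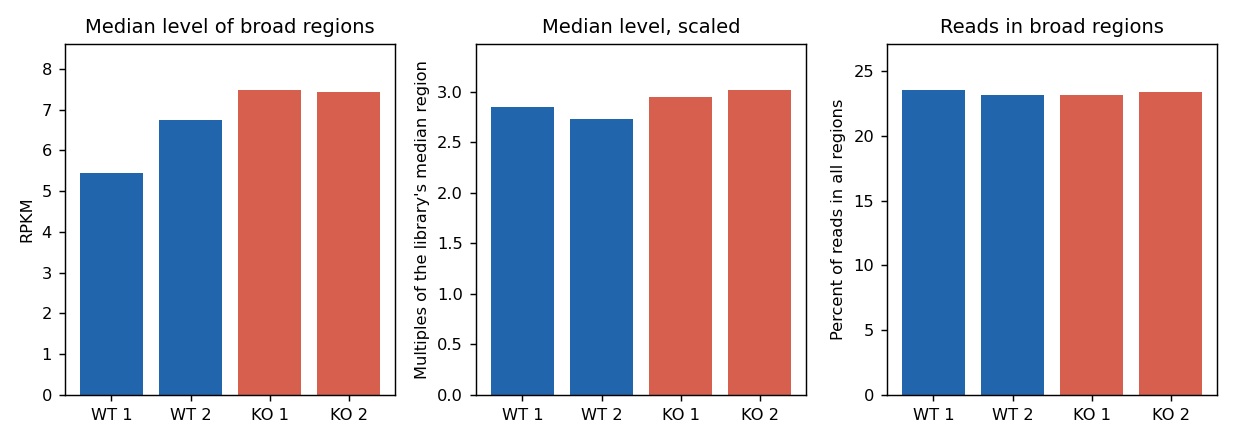
Median level of the 2808 broad regions per library in RPKM (left) and in multiples of the library's median region (middle), and the percent of all region reads that fell in broad regions (right); bars are single libraries. The WT libraries are lowest in the left panel at 5.45 and 6.74 RPKM, the gap is smaller after scaling (2.73 to 3.02 times), and the share of reads runs from 23.1% to 23.5%.

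Region by region, the fold changes of the broad set lay close together. The median log2 fold change of KO minus WT on the log2(RPKM + 1) scale was 0.27 (quartiles 0.15 and 0.36), against 0.20 for narrower regions (quartiles −0.073 and 0.44) and 0.20 over all regions. Its SD over regions was 0.157 in the broad set and 0.420 in the narrower. In plain ratios without a pseudocount, the median broad region was 1.23-fold higher in KO. Of the broad regions, 2632 (93.7%) had a higher mean in KO as deposited, against 69.3% of the narrower ones. After division by the library median the broad set was at 0.09 (quartiles −0.0090 and 0.18) and the narrower at 0.057, with 72.8% and 56.3% above 0. That direction depended on the scaling, since the median of the broad set was −0.02 both with scaling to the total of region reads and with quantile normalization.

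**Figure D3:**
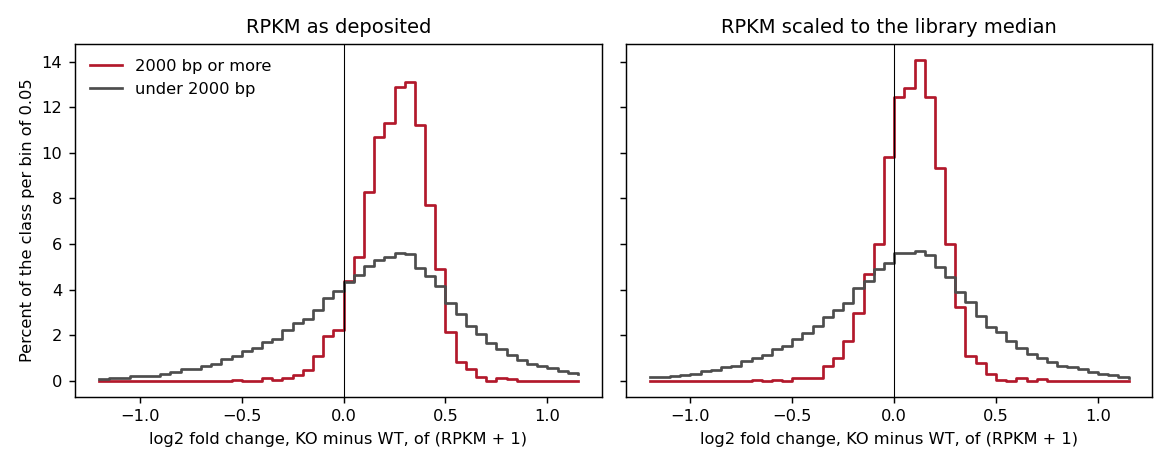
Distribution of the log2 fold change (KO minus WT, of RPKM + 1) over 2808 broad regions and 79456 narrower autosomal regions, as percent of each class per bin of 0.05, for RPKM as deposited (left) and divided by the library median (right). The axis leaves out the most extreme narrower regions; the broad regions form the narrower peak (SD 0.157 against 0.420 as deposited), with the median at 0.27 as deposited and at 0.09 after scaling.

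Many broad regions had genotypes that did not overlap. As deposited, KO was the higher in every pairing of a KO with a WT library in 1701 of 2808 broad regions (60.6%), where 32.3% of all regions did so and 31.2% of the narrower ones. Both KO libraries lay below in 31 broad regions (1.10%), against 8.1% of all regions. After division by the library median, 1068 broad regions (38.0%) had both KO libraries above, against 23.0% of all regions, and 204 (7.26%) had both below, against 13.9%. Regions just under the limit were much like the broad ones. At 1500 to under 2000 bp, 57.2% as deposited and 36.1% after scaling had both KO libraries above. In the narrowest class the shares were 21.7% and 17.8%. All regions share the same 4 libraries, so a common shift of 1 library is counted in each of them.

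No single broad region passed the test across all regions. Limma on log2(RPKM + 1), a linear model that pools the spread over regions, called 0 of the 2804 broad regions that passed the filter on low values, either higher or lower (Benjamini-Hochberg adjusted p under 0.05, smallest 0.315). Among all regions tested it called 0.0187% higher and 0% lower. At unadjusted p under 0.05 it had 98 broad regions (3.50%) higher and 0 lower, where 8.22% of all regions were higher and 0.842% lower. After division by the library median it again called 0 broad regions (smallest adjusted p 0.543), as it did among all regions (0% higher and 0% lower). At unadjusted p under 0.05 there were then 91 broad regions (3.25%) higher and 3 (0.107%) lower, against 5.29% and 2.0% of all regions. The fold changes as deposited depended on which WT library was kept. The median log2 fold change of the broad set was 0.41 without Flicr WT replicate 2 and 0.12 without Flicr WT replicate 1. Each of these fits set a lone WT library against KO, so the number of regions called is not given. The pairwise medians show the same. The broad regions of Flicr WT replicate 1 were 0.296 lower than those of Flicr WT replicate 2 in log2, as the median over regions, and 0.413 and 0.408 lower than those of the KO libraries.

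The fold change of a broad region went with its level. In the lowest quartile of the broad set (mean RPKM up to 4.12, 702 regions), the median log2 fold change as deposited was 0.15. It was 0.23 and 0.29 in the middle quartiles and 0.35 in the highest (mean RPKM from 11.2). After division by the library median the same quartiles stood at 0.0018, 0.062, 0.11 and 0.16. The order was the same without a pseudocount, from 0.0031 to 0.17. After scaling, both KO values topped both WT values in 18.2% of the lowest quartile and 64.7% of the highest, where 23.0% of all regions did so. Both KO values were below in 16.8% and 0.997%, against 13.9% of all regions. The shares of all regions cover every level. The quartiles were cut on mean RPKM over the same 4 libraries, so a high KO value raised both level and fold change. No test was made of this trend.

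At equal level, broad regions had a slightly smaller fold change than narrower ones. When all autosomal regions were put into 10 classes by mean RPKM, the broad median was below the narrower median in 9 of 10 classes, both as deposited and after scaling. The exception was the second class, with 10 broad regions. In the top class, with 975 broad regions, the scaled medians were 0.149 for broad and 0.160 for narrower regions. In the classes below it they were 0.0862 and 0.120 (707 broad regions), 0.0467 and 0.0949 (501), and 0.0147 and 0.0680 (313). The classes use the same libraries as the fold changes, and no test was made of this difference. Across the 4 broad width classes the scaled median ran from 0.0991 at 2000 to under 2500 bp to 0.0759 at 4000 bp or more.

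**Figure D4:**
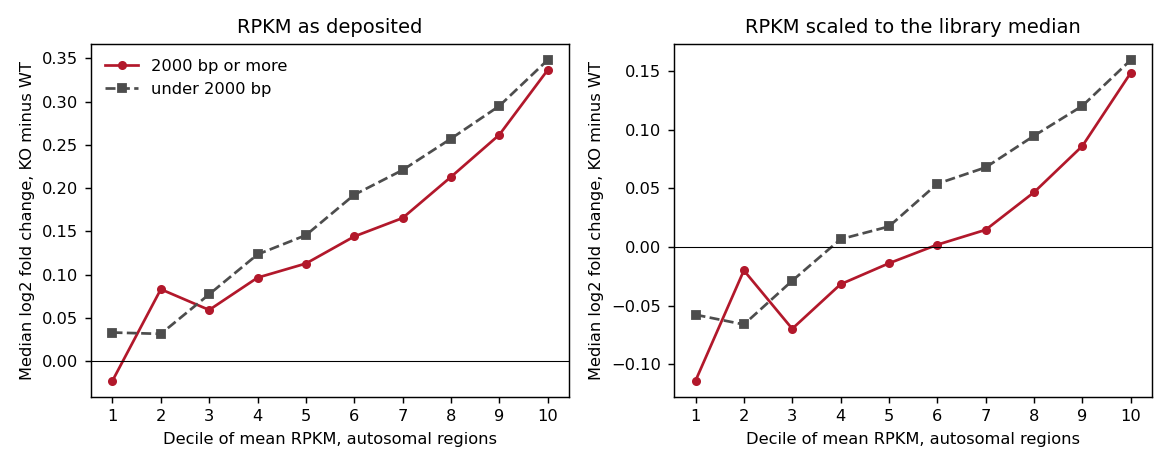
Median log2 fold change of KO minus WT (RPKM + 1) by decile of mean RPKM over all autosomal regions, for broad and narrower regions, as deposited (left) and after division by the library median (right). Both lines climb from the third decile on, and the broad line lies below the narrower one in 9 of 10 deciles; the lowest deciles hold few broad regions (6, 10 and 17).

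The 5 most accessible broad regions were 2042 to 2832 bp wide and had mean levels far above the median of the set. The region at chr16:42874852-42877090, the highest of the set, was at 94.8 and 114 RPKM in Flicr WT replicates 1 and 2 and at 137 and 128 RPKM in Flicr KO replicates 1 and 2. The groups did not overlap, and in multiples of the library median they stood at 49.5 and 46.0 in WT and 53.8 and 52.0 in KO. Next came chr8:4165200-4167421, with 85.3 and 102 RPKM in WT and 132 and 124 RPKM in KO. The regions chr13:6546284-6548325, chr3:75359679-75362510 and chr8:116158397-116160685 followed, with WT libraries from 47.6 to 74.7 RPKM and KO libraries from 70.8 to 86.4 RPKM. In all 5, both KO libraries were above both WT libraries, as they were in 86.2% of the highest quartile of broad regions and in 32.3% of all regions as deposited. The 5 had log2 fold changes from 0.35 to 0.47 as deposited and 0.15 to 0.27 after scaling, and none passed (limma adjusted p 0.516 to 0.603 as deposited). With quantile normalization, chr16:42874852-42877090 and chr8:116158397-116160685 had fold changes of −0.044 and −0.048.

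The 5 regions with the smallest p as deposited all had higher levels in KO. The lead was chr9:85306856-85308887, 2032 bp wide, at 9.79 and 16.1 RPKM in Flicr WT replicates 1 and 2 and at 23.3 and 21.7 RPKM in Flicr KO replicates 1 and 2. It rested on 581 and 1063 reads in WT and 1978 and 861 in KO. KO averaged 22.5 ± 1.11 RPKM and WT 13.0 ± 4.5 RPKM (SD, n = 2 each). The log2 fold change was 0.79 (SE 0.25) and the limma adjusted p 0.315. After scaling the difference was 0.60 (SE 0.15, limma adjusted p 0.543). The other regions of this kind were chr14:100857480-100859534, chr13:111352721-111355500, chr6:108161405-108164897 and chr12:66065620-66068010. They had KO means 1.52-fold to 1.66-fold those of WT, with limma adjusted p from 0.419 to 0.435. In each of the 5, Flicr WT replicate 1 was the lowest library as deposited.

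Of the broad regions with a lower level in KO as deposited, chr11:3097504-3100083 had the smallest p, at 5.20 and 4.62 RPKM in WT and 2.99 and 3.22 RPKM in KO. The groups did not overlap, and the log2 fold change was −0.53 (SE 0.32, limma adjusted p 0.629), or −0.69 (SE 0.27) after scaling. The region chr17:39980020-39983727 was at 46.5 RPKM in Flicr WT replicate 1 but at 28.8 in Flicr WT replicate 2, and at 27.5 and 29.2 RPKM in KO, so 1 WT library stood apart from the other 3. The remaining regions, chr9:44793204-44795520, chr5:140406744-140408863 and chr15:55656738-55658862, were weak for broad regions, with 1.31 to 3.75 RPKM in any library, and their log2 fold changes of −0.31 to −0.35 had SEs of 0.34 to 0.41.

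Since broad regions hold many reads, the read numbers were also tested with limma voom, which weights each value by its read number; this was chosen after seeing the data. Scaled to the reads in all regions, voom called 7 broad regions higher and 6 lower in KO, of 2804. Among all regions tested it called 0.0249% higher and 0.015% lower. Scaled to all library reads it called 0 of the broad regions (smallest adjusted p 0.0912), where 0.0162% of all regions were called higher and 0% lower. At unadjusted p under 0.05 it then had 598 broad regions (21.3%) higher and 2 (0.0713%) lower, against 9.17% and 0.709% of all regions. Scaled to region reads, voom had 119 broad regions (4.24%) higher and 152 (5.42%) lower at that threshold, against 2.57% and 4.45% of narrower regions. None of the 13 passed limma on the scaled RPKM, where their adjusted p ran from 0.543 to 0.788. The calls also turned on single libraries. Voom fits without 1 library had a single library in 1 genotype, so how many regions they called is not given.

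The 7 regions that voom called higher were 2032 to 3493 bp wide, with mean levels of 17.7 to 111 RPKM. All 7 were above the upper quartile of the broad set, 11.2 RPKM. Voom weights values by read number, and the part of this in the high levels was not tested. The voom log2 fold changes were 0.15 to 0.49 and the adjusted p 0.00436 to 0.0482. The smallest p belonged to chr6:108161405-108164897, which stood at 8.08 and 9.07 times the library median in WT and at 12.4 and 11.3 times in KO, on 1580 to 4589 reads (voom log2 fold change 0.35, SE 0.071). The region chr9:4308146-4311570 was at 23.8 and 22.9 times the median in WT and 29.0 and 28.3 times in KO (0.18, SE 0.038). The region chr6:13626224-13629108 was at 22.4 and 22.0 times in WT and 28.1 times in both KO libraries (0.21, SE 0.044). The others were chr8:4165200-4167421, chr8:4677225-4679612, chr9:85306856-85308887 and chr3:79431458-79433697. Voom chose these 7 as higher in KO, and in all 7 the groups did not overlap on either scale. Separation of the groups with KO higher was seen in 32.3% of all regions as deposited and in 23.0% after scaling. A higher KO value in the 7 whichever library was left out follows from the choice and the lack of overlap, and adds no support. The calls needed both KO libraries. The voom log2 fold changes of the 7 were 0.11 to 0.46 without Flicr KO replicate 1 and 0.16 to 0.51 without Flicr KO replicate 2.

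The 6 regions that voom called lower lay at 2 places, 5 of them within 60605 bp at the start of chromosome 11, with 5 other regions of the list between them, and 1 on chromosome 17. No repeat annotation was at hand, so whether these stretches are high-copy sequence, where reads of several copies would add up in 1 place, was not tested. They include the widest regions of the whole set, chr11:3059534-3074728 with 15195 bp and chr11:3080681-3095040 with 14360 bp. The former was at 12.4 and 13.7 RPKM in Flicr WT replicates 1 and 2 and at 12.5 and 12.7 RPKM in Flicr KO replicates 1 and 2. The latter was at 25.5 and 32.2 RPKM in WT and 25.7 and 26.2 RPKM in KO. As deposited, KO and WT overlapped in both. In multiples of the library median, chr11:3080681-3095040 was at 13.3 and 13.0 in WT and 10.1 and 10.7 in KO, with no overlap (voom log2 fold change −0.48, SE 0.026, adjusted p 2.68e-74). The other called members of the row were chr11:3039479-3048886 (−0.45, adjusted p 4.68e-13), chr11:3052131-3059055 (−0.43, adjusted p 2.48e-07) and chr11:3097504-3100083 (−0.98, adjusted p 0.00183), all by voom on region reads. The sixth was the region of chromosome 17 described above (voom log2 fold change −0.61, adjusted p 4.61e-23). Its WT replicates stood at 24.3 and 11.7 times the library median, yet voom, which pools the spread over regions, gave an SE of 0.056. Its call rested on Flicr WT replicate 1, and without that library the voom log2 fold change was −0.21. The 5 of chromosome 11 then ran from −0.29 to −0.75. Without Flicr KO replicate 1, those 5 ran from −0.33 to −0.88.

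The reads in these 6 regions made up 0.0959% and 0.103% of all library reads in Flicr WT replicates 1 and 2 and 0.0883% and 0.0895% in Flicr KO replicates 1 and 2. Over the same libraries, all broad regions together went from 5.71% to 8.11%. Of the reads in regions, the 6 took 0.396% and 0.333% in WT and 0.252% and 0.263% in KO. Since the voom scaled to region reads chose these 6 as lower in KO, the order of these shares between genotypes is given by the choice. Whether the difference between genotypes in these regions comes from the share of reads in regions was not tested. Without them, the share of region reads in broad regions was 23.0% ± 0.174 in KO and 23.0% ± 0.264 in WT (SD, n = 2 each).

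**Figure D5:**
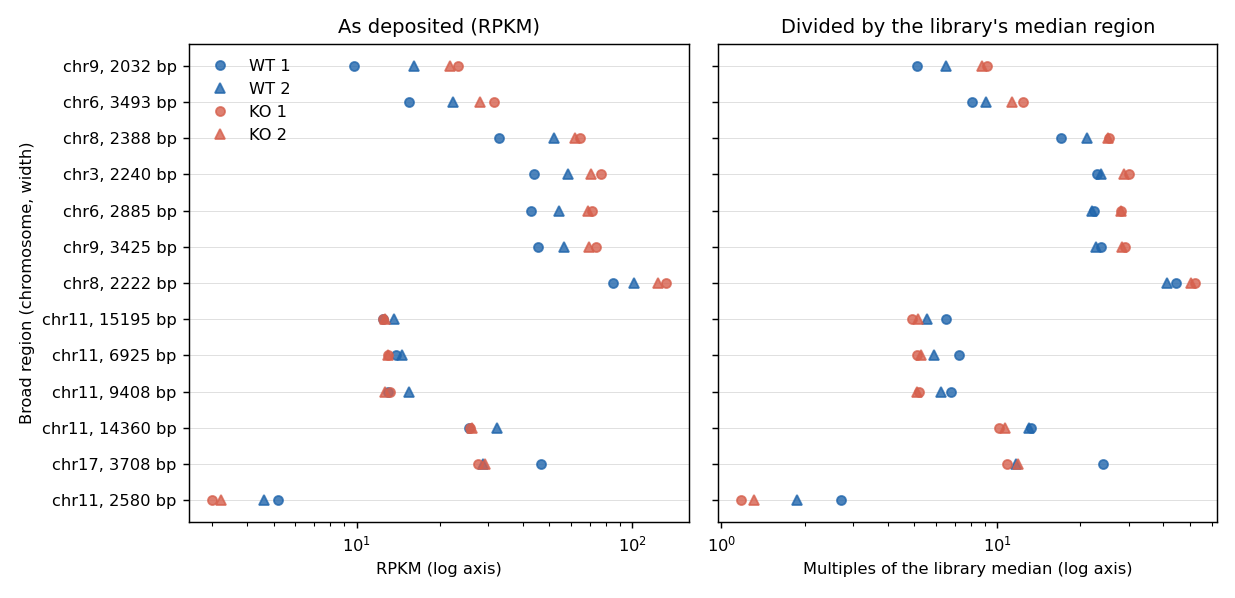
Levels of the 13 broad regions called by voom on region reads, per library, as RPKM (left) and as multiples of the library median (right), on log axes; each row is a region named by chromosome and width, circles are replicate 1 and triangles replicate 2. In the upper 7 rows KO lies above WT in both panels; in the 5 chromosome 11 rows KO and WT lie close together as deposited, apart from the region of 2580 bp, and separate after scaling, and on chromosome 17 Flicr WT replicate 1 stands alone at 46.5 RPKM.

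The other 3 of the 5 widest regions had mean levels of 4.44 to 10.3 RPKM, inside the quartiles of the broad set. The region chr16:23982039-23991990, 9952 bp wide, was at 3.78 and 4.61 RPKM in WT and 4.54 and 4.82 RPKM in KO, and the groups overlapped. Its log2 fold change was 0.13 as deposited and −0.031 after scaling. The region chr2:9792413-9802214, 9802 bp wide, was at 7.67 and 9.48 RPKM in WT and 10.3 and 10.03 RPKM in KO, with a scaled log2 fold change of 0.045 (SE 0.18). The region chr16:76365437-76375074, 9638 bp wide, was at 7.13 and 10.6 RPKM in WT and 11.2 and 12.1 RPKM in KO, with a scaled log2 fold change of 0.20 (SE 0.18). None passed limma on either scale, with adjusted p from 0.671 to 0.991.

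Broad regions lay among other regions more closely than narrower ones did. The median gap to the nearest region of any width was 855 bp for a broad region and 2189 bp for a narrower one, and 55.3% of broad against 33.2% of narrower regions had a neighbour within 1000 bp. From 1 broad region to the next the median gap was 77666 bp. With gaps of up to 10000 bp joined, 2219 broad regions stood alone and 589 (21.0%) lay in rows, among them 23 rows of 4 or more. The longest rows held 11 broad regions each, at chr16:52030946-52096857 and chr9:32502473-32557061, followed by the row of 9 at chr11:3031960-3100083 that contains the regions described above. In the row of chromosome 16, the median region was at 3.95 and 6.04 RPKM in Flicr WT replicates 1 and 2 and at 6.15 and 6.94 RPKM in Flicr KO replicates 1 and 2, and the row took 0.108% to 0.112% of region reads in each library. In the row of chromosome 9 the median region was at 3.21 and 4.13 RPKM in WT and 3.86 and 4.55 RPKM in KO, and the row took 0.0479% and 0.0458% of region reads in WT against 0.0369% and 0.0415% in KO.

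Broad regions in long rows were weaker and had smaller fold changes than those standing alone. The 116 regions in rows of 4 or more had a median mean level of 4.43 RPKM, a median width of 3024 bp and a scaled median log2 fold change of −0.021, against 7.29 RPKM, 2428 bp and 0.10 for the single regions. The 473 regions in rows of 2 or 3 were between, at 5.39 RPKM and 0.067. The order was the same in broad regions above the median level, at 0.14 for single regions, 0.12 in short rows and 0.065 in long rows, the last with 32 regions, and in those below it, at 0.037, 0.030 and −0.041. The 32 include regions of the row at the start of chromosome 11, whose median level was 12.8 RPKM. The 9 regions of that row had scaled log2 fold changes from −0.69 to −0.086, and the medians without them were not computed. Of the 23 long rows, 21 had a median above 0 as deposited and 11 after scaling. Their scaled medians ran from −0.31 in the row at the start of chromosome 11 to 0.14. Regions of 1 row are neighbours and not independent, and no test was made between these groups.

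Chromosomes differed in how many of their regions were broad. Chromosome 11 had the lowest share, 79 of 4272 regions or 1.85% (Wilson 95% interval 1.49% to 2.30%), and chromosome 9 followed with 2.63% (2.19% to 3.15%). The highest shares were 4.33% on chromosome 16 (3.71% to 5.05%), 4.32% on chromosome 10 (3.81% to 4.90%) and 4.27% on chromosome 18 (3.59% to 5.07%). The intervals cover counting error only. Chromosome 11 also had the weakest broad regions, with a median of 4.07 RPKM against 7.92 RPKM on chromosome 16. The median log2 fold change of the broad regions was above 0 on all 19 autosomes, from 0.20 on chromosome 11 to 0.29 on chromosome 8 as deposited, and from 0.031 on chromosome 19 to 0.11 on chromosome 6 after division by the library median. Chromosomes 11 and 19 were the lowest on both scales, at 0.034 and 0.031 after scaling, and their narrower regions were also the lowest of the 19, at 0.012 and 0.023.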

How the data were processed

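The deposited files hold RPKM values computed by the authors over a shared list of 84476 regions, per the file headers, with no normalization between libraries beyond that. HOMER 4.6, DiffBind, Bowtie2, SAMtools, Picard 1.130 and the build mm9 are listed, without roles, per the submitters' processing notes. Region calling and joining, read shifting and duplicate removal are not given in the sources used here. Labels and design text differ on whether cells were sorted once or repeatedly. Every RPKM times the region's length less 1 base was a whole number of reads (100%, tolerance 0.001), which gave reads per region. Of the read numbers, 78.8% to 85.5% were even, so mates may have been counted separately. Positions count from 1.

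KO and WT were compared with limma 3.58.1 (R 4.3.3, trend and robust) on log2(RPKM + 1) over all regions with a mean RPKM of at least 1.01, the 5th percentile (80254 regions; 4 broad regions were dropped), as deposited and with RPKM divided by each library's median and multiplied by the mean of the 4 medians. Adjusted p-values are Benjamini-Hochberg values across the 80254 regions, called under 0.05. Fold changes on this scale understate weak regions. Medians over regions are descriptions. Library values were compared by an exact permutation test. The regions named were the 5 widest, the 5 highest, and the 5 of smallest p in each direction on each scale. Those called by voom were added with their values known. The broad set and these rules were chosen with earlier results of these data known. Gene lists were not used, since no annotation of mm9 was at hand. Alternatives covered scaling, pseudocount, filter, limma's options, the width limit, left-out libraries and the replicate number. Python 3.11.15, numpy 2.4.6, pandas 2.3.3, scipy 1.17.1 and matplotlib 3.10.9 were used.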

Additional observations from a re-analysis of the deposited data

How the results depend on the processing

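The count of 0 broad regions called as deposited became 0 to 420 when a library was left out, and the count of 0 after scaling became 0 to 4, each such fit setting 1 library against 2; with voom on region reads it was 13, and 2 to 60 when voom left out a library. The median log2 fold change of the broad set, 0.27 as deposited, was 0.091 with division by the library median, −0.022 with total scaling and −0.024 with quantile normalization, which remove a common shift by construction, and 0.12 to 0.41 when a library was left out. The scaled median, 0.091, was 0.060 with a pseudocount of 5, which shrinks fold changes by construction, −0.022 with total scaling and −0.024 with quantile normalization. The log2 ratio of broad to narrower levels, 0.053 higher in KO, was −0.047 with quantile normalization. The share of region reads, −0.055 points, was 0.16 with a limit of 1500 bp, 0.052 without the 6 regions called lower, and −0.27 to 0.16 when a library was left out; the cause was not tested. For the 26 named regions, 416 alternative fold changes were computed, of which 376 left sign and call as they were, 29 gained a call and 11 changed sign, none of them called: chr16:23982039-23991990 was −0.031 with the library median, −0.14 with total scaling, −0.12 with quantile normalization and −0.18 with voom on region reads; chr2:9792413-9802214 was −0.071, −0.086 and −0.075 with the last 3; chr16:42874852-42877090 and chr8:116158397-116160685 were −0.044 and −0.048 with quantile normalization; and with a library left out, chr11:3059534-3074728 ran from −0.11 when this was Flicr WT replicate 1 to 0.015 when it was Flicr WT replicate 2, and chr11:3080681-3095040 from −0.30 to 0.028. Of the 29 calls gained, 13 were given by the choice, since voom on region reads had named those regions. The others came from fits without 1 WT library, in which WT had no replicate, so they add no support. The labels number replicates in both genotypes but do not say whether those numbers pair the samples. The correlation of deviations over broad regions was 0.034, and 2 pairs cannot settle it. With the replicate block the counts stayed 0 as deposited and scaled, and the medians were 0.27 and 0.091. The smallest limma adjusted p of a broad region was then 0.395 as deposited and 0.172 scaled, against 0.315 and 0.543 without the block. With 2 libraries against 2, no exact permutation p can be under 0.333. The lowest read number of a broad region in any library was 30.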
